A study of Mus musculus with 15 samples.

Results

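The gene families studied here are the developmental regulators that are classical targets of Polycomb repression: the Hox, GATA, SOX, T-box, LIM-homeobox, NKX and sine oculis transcription factors and the Wnt ligands. Members were chosen by gene symbol alone, as a family name followed by its number, which gave 123 of the 21669 genes with a symbol in the table. They comprise 39 Hox, 19 Sox, 19 Wnt, 13 Nkx, 13 Tbx, 8 Lhx, 6 Gata and 6 sine oculis genes. No expression value entered this rule, although the members were chosen with earlier results of these data known.

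RNA-seq was performed on mouse B cells of 5 groups with 3 libraries each, all from female wild-type C57BL/6J mice, aged 6 to 9 weeks by the study's methods. Naive B cells (nB) were CD43- cells of the spleen, whose labels give no stimulus and no drug. The other 4 groups came from 3-day cultures stimulated by LPS with IL2 and IL5, to which the vehicle DMSO or 2 µM GSK343, a small molecule that inhibits the methyltransferase EZH2, was added. At the end of the culture, activated B cells (actB) were sorted as B220+, GL7+ and CD138-, and plasmablasts (Pb) as CD138+. The labels of the Pb GSK343 libraries name Il6 where those of the other cultured groups name Il5, so that in Pb a different cytokine, if the label is right, cannot be told apart from the drug. Cells were sorted after exposure to the drug, so that altered expression and an altered make-up of each sorted gate cannot be told apart, nor can fewer expressing cells and less RNA per cell.

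EZH2 is the catalytic subunit of Polycomb repressive complex 2 (PRC2), which places the repressive mark H3K27me3 on histone H3. The Hox genes lie in 4 clusters, Hoxa to Hoxd, encode homeodomain factors that set position along the body axis, and are the best known Polycomb targets. GATA factors direct erythroid, mast cell and T cell fates, SOX factors carry an HMG box, T-box (Tbx) factors include T-bet, LIM-homeobox (Lhx), NKX and sine oculis factors pattern the nervous system, gut, heart, muscle and eye, and Wnt genes encode secreted ligands for Frizzled and LRP receptors.

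The libraries held 19421830 to 26307413 reads counted in genes, and levels are given as reads, as RPM (reads per 1000000 reads counted) or as RPKM (RPM per kilobase of the deposited gene length). In one library 3 reads, the limit that a count of 0 allows, equal 0.114 to 0.154 RPM, and this limit covers counting error only. nB replicates 1 and 2 differed by less than the sampling noise and were counted as 1 sample, which left 2 nB libraries. All 6 B cell genes checked (*Pax5* and others) were expressed, all 5 plasmablast genes (*Sdc1*, *Prdm1* and others) were called higher in Pb than in actB, and *Cd3e*, a chain of the T cell receptor complex, had 0 or 1 read in each cultured library. The EZH2 transcript itself (*Ezh2*) was at 94.3 to 106 RPKM in actB DMSO, 106 to 128 RPKM in actB GSK343, 71.2 to 81.4 RPKM in Pb DMSO and 79.4 to 87.5 RPKM in Pb GSK343, and 0 of the 11 PRC2 genes tested passed the limma test of GSK343 against DMSO in either cell type. With the replicate block described below, *Ezh2* was called higher in actB and *Suz12* lower in Pb, the second named after its value was seen. GSK343 blocks the enzyme and not its transcript, so these levels do not show whether inhibition was reached.

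Promoter sequences of 5 members are shown as examples of the differences in expression described below. *Sox4*, *Tbx21* and *Six5* are members above the expression filter whose GSK343 and DMSO libraries did not overlap in one of the cell types, and *Hoxb4* and *Hoxb8* are an expressed and a silent gene of the same Hox cluster. Each runs from 250 bases before to 50 bases after the RefSeq start on mouse build GRCm38.p6, 5′ to 3′ on the strand of the gene, and CG dinucleotides are in capitals.
Sox4, chr13:28953650-28953949, minus strand: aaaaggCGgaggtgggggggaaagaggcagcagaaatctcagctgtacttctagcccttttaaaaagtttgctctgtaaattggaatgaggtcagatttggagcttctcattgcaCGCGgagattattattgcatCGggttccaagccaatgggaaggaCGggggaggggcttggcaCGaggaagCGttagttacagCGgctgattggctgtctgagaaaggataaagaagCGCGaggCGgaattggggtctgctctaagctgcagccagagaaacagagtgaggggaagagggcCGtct
Tbx21, chr11:97115282-97115581, minus strand: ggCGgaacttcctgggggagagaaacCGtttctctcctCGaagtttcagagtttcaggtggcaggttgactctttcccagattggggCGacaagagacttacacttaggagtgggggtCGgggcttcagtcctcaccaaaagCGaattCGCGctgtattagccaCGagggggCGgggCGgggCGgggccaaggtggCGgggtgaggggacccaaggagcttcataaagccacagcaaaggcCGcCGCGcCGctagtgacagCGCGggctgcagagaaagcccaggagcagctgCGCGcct
Six5, chr7:19094294-19094593, plus strand: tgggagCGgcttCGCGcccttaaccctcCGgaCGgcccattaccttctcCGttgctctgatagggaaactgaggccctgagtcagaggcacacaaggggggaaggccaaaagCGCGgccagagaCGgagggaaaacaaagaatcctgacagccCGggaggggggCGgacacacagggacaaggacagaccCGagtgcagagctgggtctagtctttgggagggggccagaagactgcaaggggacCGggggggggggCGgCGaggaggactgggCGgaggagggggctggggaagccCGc
Hoxb4, chr11:96318017-96318316, plus strand: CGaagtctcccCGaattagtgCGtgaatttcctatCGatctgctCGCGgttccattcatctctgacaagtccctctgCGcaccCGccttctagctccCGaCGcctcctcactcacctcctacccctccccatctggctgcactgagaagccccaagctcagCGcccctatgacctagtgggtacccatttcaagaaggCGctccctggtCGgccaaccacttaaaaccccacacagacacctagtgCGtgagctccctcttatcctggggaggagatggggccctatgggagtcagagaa
Hoxb8, chr11:96281655-96281954, plus strand: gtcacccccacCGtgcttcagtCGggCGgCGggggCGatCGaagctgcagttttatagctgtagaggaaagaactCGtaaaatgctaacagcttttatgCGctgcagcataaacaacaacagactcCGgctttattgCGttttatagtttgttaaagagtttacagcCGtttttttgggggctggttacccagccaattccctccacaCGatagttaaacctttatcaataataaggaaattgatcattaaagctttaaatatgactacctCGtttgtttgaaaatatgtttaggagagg

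The motif CG, which reads the same on both strands, occurred 12 times in the window of *Sox4*, 21 times in that of *Tbx21*, 17 times in that of *Six5*, 14 times in that of *Hoxb4* and 13 times in that of *Hoxb8*. RefSeq windows were matched for 85 of the 123 members. Their median was 20 CG per window, against 7 over all 27025 windows and 21 over the windows of 8572 genes that passed the expression filter described below. At least 1 CG was found in 94.2% of all windows and in 100% of the members' windows, and at least 20 in 26.8% of all windows and 52.9% of the members' windows. The 59 matched members that were silent in culture had a median of 20, so that the CG content of their windows was close to that of genes expressed in these cells. The 7 matched members above the filter had a median of 17, and 28.6% of them had at least 20, against 54.2% of the silent members. These are counts of letters in a window, and DNA methylation was not analysed here.

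Most members were silent in actB and Pb, with and without GSK343. A member was called silent if it had at most 3 reads in each of the 12 cultured libraries. This held for 90 of 123 members (73.2%), against 33.7% of all genes with a symbol. For 45 of them no read was counted in any cultured library, which over the 269486583 reads of those libraries allows a level of up to 0.0111 RPM. The silent genes made up 31 of 39 Hox, 11 of 13 Nkx, 6 of 8 Lhx, 14 of 19 Wnt, 9 of 13 Tbx, 4 of 6 Gata, 4 of 6 sine oculis and 11 of 19 Sox genes. Among all 123 members, 18 had no read in any library of the study, among them *Hoxb2*, *Hoxd13*, *Nkx6-1*, *Sox14* and *Wnt7a*.

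**Figure D1:**
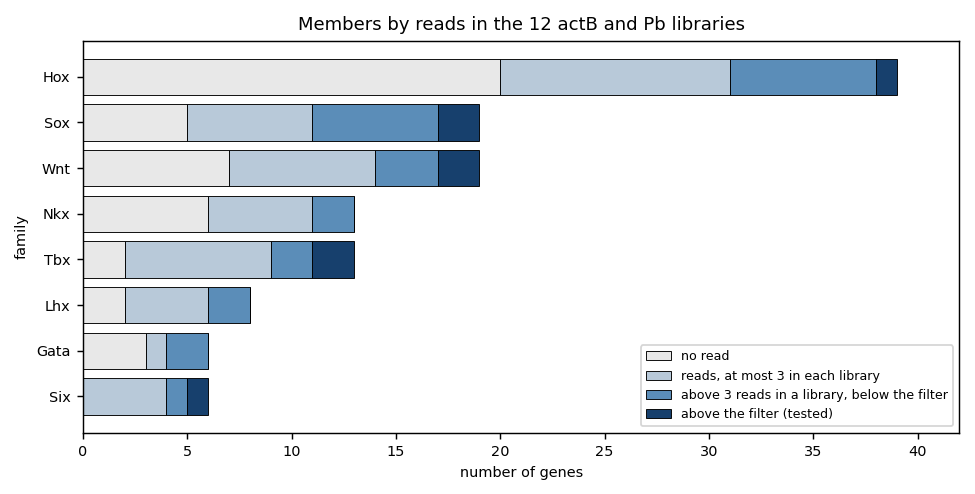
Number of genes in each family (horizontal axis) by the reads counted in the 12 actB and Pb libraries. Pale segments are genes with no read or at most 3 reads in each library (90 of 123 members), and the darkest segments are the 8 members above the expression filter.

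The summed level of the silent genes overlapped between GSK343 and DMSO in both cell types. Summed over the 90 silent members, actB DMSO libraries held 0.546, 0.658 and 0.616 RPM and actB GSK343 libraries 0.646, 0.529 and 0.513 RPM. Pb DMSO libraries held 0.665, 1.37 and 1.01 RPM and Pb GSK343 libraries 0.967, 0.800 and 0.562 RPM. Each sum came from 11 to 28 reads per library spread over 90 genes. Members were called silent from these same libraries, so the sums describe a set whose GSK343 libraries were already held to 3 reads per gene. Members that gained more reads are described below.

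Other developmental families were also mostly silent. Of 98 genes of other homeobox and developmental families in the table (Pax, Fox, Dlx, Irx and others, with *Cdkn2a* and *Cdkn2b*), 84 had at most 3 reads in each cultured library (85.7%), and 2 could be tested. Both of these, *Cdkn2a* and *Cdkn2b*, encode inhibitors of the cell cycle. *Cdkn2b* fell with GSK343 in actB by 0.43 on the log2 scale (SE 0.12, limma adjusted p = 0.0469) and did not pass in Pb (0.18, adjusted p = 0.404). With the replicate block *Cdkn2a* was also called lower in actB. These 2 genes were named after their values were seen. Of the 98 genes, 44 had no read in culture. All 3 GSK343 libraries exceeded the 3 DMSO libraries in RPM for 4 of the 98 in actB and 0 in Pb. Of all genes with a read this held for 15.6% in actB and 15.7% in Pb. Below the expression filter it held for 9.52% of genes with a read in actB and 8.93% in Pb. The 44 genes without a read could not meet it, so the count out of 98 is not on the same base as these shares.

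The Hoxc and Hoxd clusters were almost without reads in cultured cells. Over its 9 genes the Hoxc cluster had 0 to 2 reads in each cultured library, and over its 9 genes the Hoxd cluster had 1 read in all 12, a *Hoxd4* read in Pb DMSO replicate 2. GSK343 libraries held no Hoxd read at all, in 3 actB and 3 Pb libraries. Reads of *Hoxc4* were counted in nB (20 and 19 reads) and not above 1 in any cultured library.

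The Hoxb cluster lies on chr11 and was expressed in its middle only. *Hoxb4* (chr11:96177998-96182952, plus strand, mm9) and its neighbour *Hoxb3* (chr11:96184640-96207999) held 1128 and 184 reads over the 12 cultured libraries. The next gene on the side of *Hoxb3*, *Hoxb2*, had no read in culture, and the next on the side of *Hoxb4*, *Hoxb5*, had 2 reads. *Hoxb6* to *Hoxb9* and *Hoxb13* had 0 to 16 reads each over the 12 cultured libraries. Whether counting used the strand is not given in the sources used here, and the annotation places *Mir10a* on the same strand within *Hoxb4* and the antisense gene *Hoxb3os* across *Hoxb3*.

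*Hoxb4*, a homeodomain factor known for promoting self-renewal of blood stem cells, was the 1 Hox gene above the expression filter. Its level was 2.32 and 2.84 RPKM in nB. In actB it was 1.91, 2.46 and 1.73 RPKM with DMSO and 2.28, 2.42 and 1.91 RPKM with GSK343, and in Pb it was 0.942, 1.20 and 0.749 RPKM with DMSO and 1.14, 1.29 and 0.943 RPKM with GSK343. DMSO and GSK343 libraries overlapped in both cell types, while every Pb library lay below every actB and nB library. The log2 change with GSK343 was 0.11 (SE 0.16, limma adjusted p = 0.751) in actB and 0.19 (SE 0.16, adjusted p = 0.516) in Pb. The fall from actB to Pb, both with DMSO, was -0.92 (SE 0.16, adjusted p = 0.00026).

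*Hoxb3* was below the filter. It had 17, 29 and 16 reads in actB DMSO, 30, 44 and 19 in actB GSK343, 1, 4 and 3 in Pb DMSO and 8, 7 and 6 in Pb GSK343. In Pb the 3 GSK343 libraries, at 0.309 to 0.350 RPM, lay above the 3 DMSO libraries, at 0.051 to 0.196 RPM, and in actB the groups overlapped. By edgeR on the recovered reads (below) the log2 change was 1.31 in Pb (adjusted p = 0.249) and 0.48 in actB (adjusted p = 0.490), so neither passed the test.

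The Hoxa cluster, on chr6, held 7 to 31 reads per cultured library over its 11 genes. *Hoxa9*, *Hoxa10* and *Hoxa13* had none in culture. *Hoxa5* had 2 to 5 reads in actB, 9, 13 and 7 in Pb DMSO and 5, 4 and 7 in Pb GSK343. By edgeR its log2 change with GSK343 in Pb was -0.89 (adjusted p = 0.204), which did not pass. From actB DMSO to Pb DMSO *Hoxa5* was higher by 2.14 (edgeR adjusted p = 0.00104). *Hoxa4* had 2, 1 and 2 reads in actB DMSO and 9, 4 and 3 in actB GSK343, which did not overlap, and 1 to 6 reads in the Pb libraries of both treatments, which did. The log2 change of *Hoxa4* in actB was 1.49 by edgeR (adjusted p = 0.218). *Hoxa6* was lower in every GSK343 than in every DMSO Pb library in RPM, from 3 reads in each DMSO library and 3, 0 and 1 with GSK343. *Hoxa3* and *Hoxa7* had 0 to 4 reads in each cultured library, and *Hoxb6* and *Hoxb9* 0 to 5, with overlapping treatments in both cell types.

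**Figure D2:**
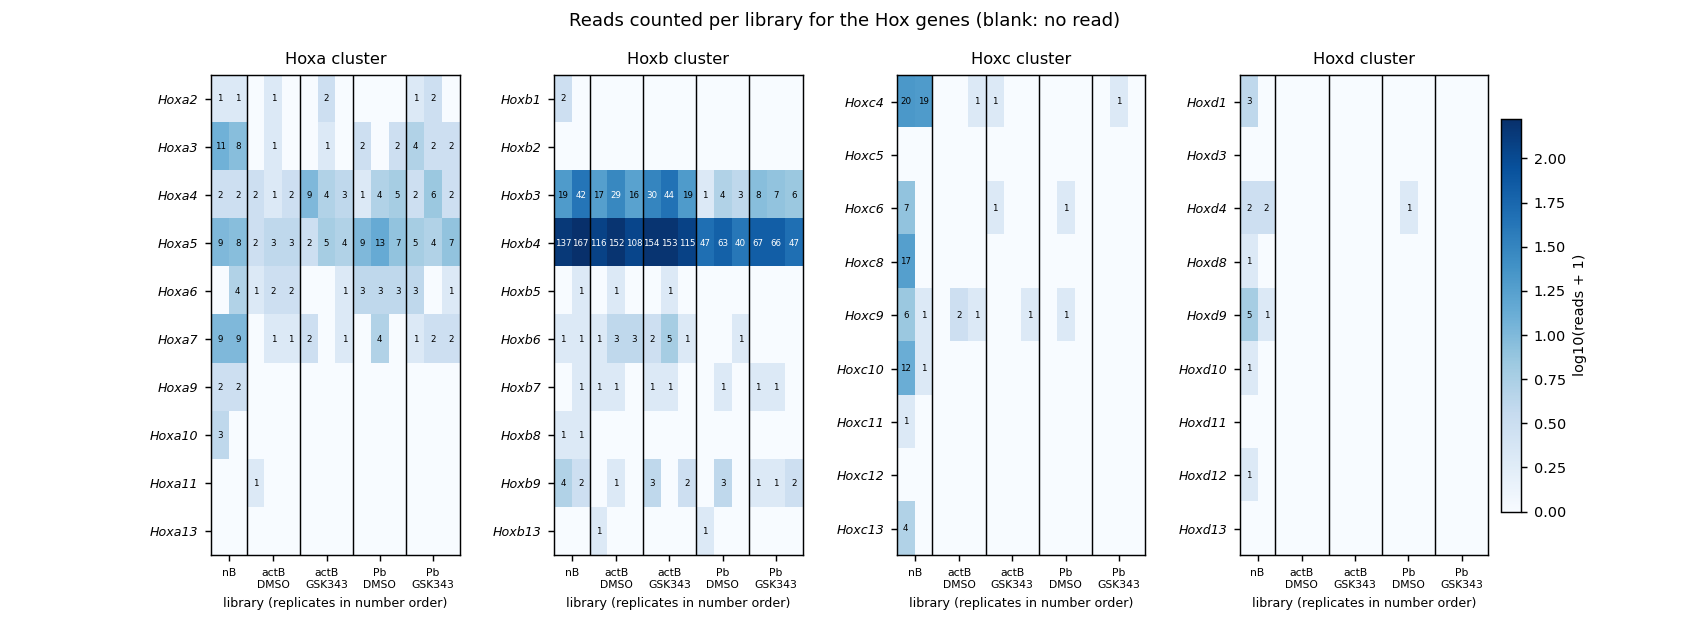
Reads counted for the Hox genes reported here (rows, in numerical order within the 4 clusters) in 14 libraries (columns, replicates in number order, with nB replicates 1 and 2 shown once). The colour is log10(reads + 1) and the numbers are the reads. *Hoxb4* has the most reads of the rows shown in every library, and *Hoxb3* is the next in actB but not in Pb DMSO, while the Hoxc and Hoxd blocks are nearly empty in the cultured groups.

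Without *Hoxb3* and *Hoxb4*, the other 37 Hox genes summed to 10, 19 and 15 reads in actB DMSO and 22, 22 and 15 in actB GSK343. In Pb they summed to 17, 38 and 22 reads with DMSO and 20, 21 and 20 with GSK343. On the RPM scale the actB sums were 0.420, 0.784 and 0.617 with DMSO and 0.836, 0.894 and 0.640 with GSK343, and the groups overlapped in both cell types.

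The test of single genes, with limma and a pseudocount of 0.25 RPKM, took in the 11299 genes that reached 1 RPKM in at least 3 of the 15 deposited columns. Of the members, 8 passed this filter (6.504%, against 52.1% of all genes with a symbol). They were *Sox4*, *Sox12*, *Tbx6*, *Tbx21*, *Six5*, *Hoxb4*, *Wnt10a* and *Wnt10b*, and the statements on tests below concern these 8 and not all members. With GSK343, 0 of 8 members passed an adjusted p of 0.05 in actB, against 10.4% of all genes tested (8.2% higher and 2.16% lower), and 0 of 8 in Pb, against 12.9% (7.9% higher and 5% lower). At an unadjusted p under 0.05 there were 3 in actB and 1 in Pb, counts that are not set against all genes here. Their median log2 change was 0.08 in actB and 0.19 in Pb, against 0.028 and 0.0031 over all genes tested. edgeR on the recovered reads also called 0 members in both cell types, whereas DESeq2 called *Sox4* higher in both (1.08, adjusted p = 0.0427, in actB and 1.223, adjusted p = 0.0147, in Pb).

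The calls depended on whether same-numbered libraries were treated as pairs. The replicate numbers of the labels were taken to pair the cultured libraries. Same-numbered libraries deviated together in every comparison of groups. Libraries of number 1 and number 3 also did so with each other, so mainly number 2 was set apart and the pairing of the others was not shown. With the replicate number as a block, *Sox4* and *Tbx21* rose and *Six5* fell in actB, where 21% of all genes tested were then called, and *Sox4* and *Wnt10a* rose in Pb, where 24.2% were. The block is fitted to the 12 cultured libraries and leaves the log2 changes as they are, and it is their standard errors that shrink. The difference of the GSK343 effects between Pb and actB passed for 0 of 8 members, with the block and without it, against 0.735% of all genes with it and 0.248% without it.

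**Figure D3:**
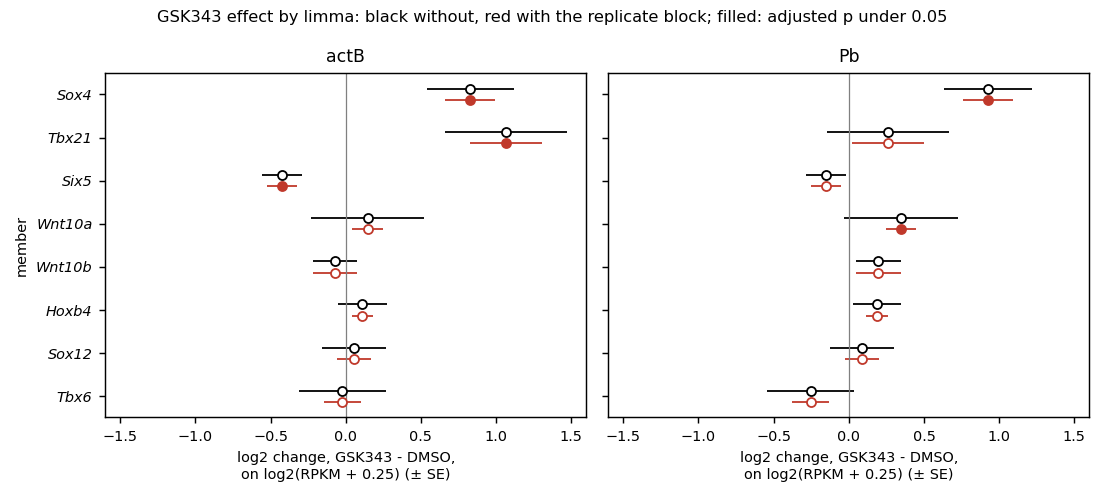
Log2 change with GSK343 against DMSO (horizontal axis, on log2(RPKM + 0.25), bars ± SE) for the 8 members tested, in actB (left) and Pb (right), by limma without (black) and with (red) the replicate block. Filled points have an adjusted p under 0.05: none of the black points, and the red points of *Sox4*, *Tbx21* and *Six5* in actB and of *Sox4* and *Wnt10a* in Pb.

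*Sox4*, an HMG-box factor needed for the development of B cells in the bone marrow, had higher values with GSK343 in both cell types. Its level was 6.72 and 5.77 RPKM in nB, and fell on activation to 0.401, 0.800 and 0.251 RPKM in actB DMSO. With GSK343 it was 1.13, 1.43 and 0.576 RPKM in actB, above the DMSO library of the same number in 3 of 3 pairs, although the groups overlapped. In Pb it was 0.575, 0.613 and 0.505 RPKM with DMSO and 1.51, 1.56 and 0.907 RPKM with GSK343. In Pb every GSK343 library lay above every DMSO library.

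The log2 change of *Sox4* with GSK343 was 0.83 in actB (SE 0.29, limma adjusted p = 0.0921) and 0.93 in Pb (SE 0.29, adjusted p = 0.0559). With the replicate block the adjusted p was 0.00982 (SE 0.17) in actB and 0.00497 (SE 0.17) in Pb. Without actB DMSO replicate 2 the change in actB was 1.12 (adjusted p = 0.0226), and without actB GSK343 replicate 3 it was 1.12 (adjusted p = 0.0402). Over the 6 fits that each left out 1 library of the comparison it ranged from 0.59 to 1.12 in actB (adjusted p = 0.0226 to 0.294), and in Pb from 0.81 to 1.14 (adjusted p = 0.0550 to 0.173), where none was called. The levels with GSK343 stayed below those of nB, where the fall from nB to actB DMSO was -3.21 (SE 0.32, adjusted p = 1.42e-06). By mean RPKM *Sox4* was the highest of the 8 members in nB and the lowest in Pb DMSO and in actB DMSO, where its libraries overlapped those of *Six5*.

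*Tbx21* (chr11:96959385-96976645, minus strand, mm9) encodes T-bet, the factor of type 1 helper T cells that also marks subsets of activated B cells. By mean RPKM it was the most abundant of the 8 members in actB, although in actB DMSO replicate 1 *Wnt10b* was higher (6.68 RPKM). Its level was 2.24 and 2.29 RPKM in nB, 6.41, 17.0 and 8.59 RPKM in actB DMSO and 20.4, 21.8 and 20.1 RPKM in actB GSK343. In actB every GSK343 library lay above every DMSO library, and DMSO replicate 2 stood apart from the other two. In Pb the level was 0.947, 2.68 and 1.07 RPKM with DMSO and 0.961, 2.86 and 1.88 RPKM with GSK343, which overlapped.

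The log2 change of *Tbx21* with GSK343 was 1.06 in actB (SE 0.41, limma adjusted p = 0.121) and 0.26 in Pb (SE 0.41, adjusted p = 0.747). With the replicate block the adjusted p in actB was 0.0150 (SE 0.24). Without actB DMSO replicate 2 the change was 1.45 (adjusted p = 0.0333), and without replicate 2 of every cultured group it was 1.42 (SE 0.23, adjusted p = 0.00499). Over the 6 fits that each left out 1 library it ranged from 0.77 to 1.45 (adjusted p = 0.0333 to 0.348). The difference between Pb and actB, -0.80 (SE 0.57, adjusted p = 0.821), did not pass, so the effect was not shown to differ between the cell types. *Tbx21* rose from nB to actB DMSO by 1.996 (SE 0.45, adjusted p = 0.00143) and fell from actB DMSO to Pb DMSO by 2.59 on the log2 scale (SE 0.41, adjusted p = 9.68e-05).

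Genes of other cells were checked beside *Tbx21*, which T and NK cells express. The 11 T and NK cell genes tested summed to 12.2 to 15.5 RPM in actB DMSO and 15.6 to 18.1 RPM in actB GSK343, and nearly all of this was *Lck*, a kinase gene, at 10.6 to 14.02 RPM with DMSO and 14.6 to 16.1 RPM with GSK343. *Lck* was called with the block and not without it. The other 10 summed to 0.864 to 1.69 RPM and 0.979 to 1.99 RPM, and 5 of the 11 had at most 3 reads in each actB library, so that no call could be made for them. The 10 myeloid genes tested summed to 39.4 to 46.8 RPM in actB DMSO and 62.8 to 103 RPM in actB GSK343, of which the other 9 without *Itgam* made up 15.1 to 16.4 RPM and 16.6 to 19.4 RPM. Of the 10, 2 rose (3 with the block, *Fcgr3* the third), *Itgam*, an integrin subunit, by 1.14 (SE 0.19, adjusted p = 0.00376) and *Adgre1* by 0.79 (SE 0.18, adjusted p = 0.0156), the second named after its value was seen. *S100a8*, a defining gene of neutrophils, had 0 reads in every cultured library, and *Csf1r*, the receptor of macrophages, had 1 to 7. In Pb the myeloid sums were 10.4 to 13.4 RPM with DMSO and 10.7 to 13.05 RPM with GSK343. The 10 T and NK cell genes other than *Lck* summed in Pb to 1.39 to 1.585 RPM with DMSO and 2.21 to 3.1 RPM with GSK343. Of the 11 T and NK cell genes 1 was called higher in Pb without the block and 2 with it. Of the 5 plasmablast genes 2 rose and 0 fell in actB with GSK343 (4 rose with the block). In Pb 1 of these 5 rose and 1 fell, and with the block these were *Sdc1* (higher) and *Irf4* (lower). Of the 6 B cell genes 0 passed in actB, with or without the block, while in Pb 2 fell (4 with the block) and 0 rose. Shares over all genes tested, both directions together, were 10.4% (actB) and 12.9% (Pb) without the block, and 21% and 24.2% with it. The part of these other genes in the values of the members was not tested.

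*Six5* (chr7:19679893-19683694, mm9), a homeobox factor of the eye and muscle, was lower with GSK343 in actB. It had 9 and 9 reads in nB (0.137 and 0.138 RPKM). In actB it was at 0.503, 0.581 and 0.448 RPKM with DMSO and at 0.240, 0.427 and 0.298 RPKM with GSK343, which did not overlap. In Pb it was at 1.68, 1.87 and 2.02 RPKM with DMSO and at 1.41, 1.77 and 1.77 RPKM with GSK343, which overlapped.

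The log2 change of *Six5* was -0.42 in actB (SE 0.13, limma adjusted p = 0.0649) and -0.15 in Pb (SE 0.13, adjusted p = 0.528). In actB the adjusted p was 0.0190 with the replicate block, 0.00413 after quantile normalization and 0.0215 without actB GSK343 replicate 2. Over the 6 fits that each left out 1 library the change ranged from -0.55 to -0.32 (adjusted p = 0.0215 to 0.208), and without replicate 2 of every cultured group the adjusted p was 0.0564. Along differentiation *Six5* rose at each step, by 0.97 from nB to actB DMSO (SE 0.15, adjusted p = 6.28e-05) and by 1.47 from actB DMSO to Pb DMSO (SE 0.13, adjusted p = 7.22e-07). Its relative *Six4*, below the filter, had 6, 10 and 3 reads in actB DMSO and 21, 31 and 32 in Pb DMSO, a log2 difference of 2.45 by edgeR (adjusted p = 0.000542). *Eya1*, which encodes a partner of sine oculis factors and was named after its values were seen, rose with GSK343 by 0.59 in actB (SE 0.13, limma adjusted p = 0.0140) and by 0.70 in Pb (SE 0.13, adjusted p = 0.00544).

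The Wnt family had 2 ligand genes above the filter, and they differed in pattern. *Wnt10a* was at 4.05, 1.88 and 2.80 RPKM in actB DMSO and 4.34, 1.92 and 3.54 RPKM in actB GSK343, and at 6.84, 2.99 and 6.45 RPKM in Pb DMSO and 8.04, 4.41 and 7.96 RPKM in Pb GSK343. Replicate 2 was the lowest of each group, so that the groups overlapped while 3 of 3 pairs were higher with GSK343 in each cell type. The log2 change was 0.15 in actB (SE 0.38, limma adjusted p = 0.869) and 0.35 in Pb (SE 0.38, adjusted p = 0.617), and with the block the adjusted p in Pb was 0.0375 (SE 0.10).

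*Wnt10b* was at 0.281 and 0.448 RPKM in nB and at 6.68, 6.63 and 6.23 RPKM in actB DMSO, a rise of 3.47 on the log2 scale (SE 0.17, limma adjusted p = 1.18e-09). It fell to 2.11, 1.77 and 2.96 RPKM in Pb DMSO, by 1.45 on the log2 scale (SE 0.15, adjusted p = 2.33e-06). With GSK343 it was at 6.501, 6.41 and 5.67 RPKM in actB and 2.51, 2.77 and 2.51 RPKM in Pb, and neither difference passed the test (-0.072, adjusted p = 0.832, and 0.20, adjusted p = 0.449).

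Of 37 Wnt receptor and pathway genes in the table, 15 could be tested. In actB 2 of 15 rose and none fell with GSK343, where 8.2% of all genes tested rose, and in Pb 4 of 15 rose and none fell, where 7.9% rose. The genes that rose, named after their values were seen, were the co-receptor gene *Lrp6* in both cell types (0.35, adjusted p = 0.00386, and 0.42, adjusted p = 0.00105), the kinase gene *Gsk3b* in both (0.16 and 0.16), and in Pb the co-receptor gene *Lrp5* (0.94, SE 0.10, adjusted p = 0.000257) and *Lef1*, a nuclear effector (0.69, SE 0.16, adjusted p = 0.0158), all by limma. The median change of the 15 was 0.10 in actB and 0.11 in Pb, against 0.028 and 0.0031 over all genes tested. With the replicate block, which called 21% of all genes in actB and 24.2% in Pb, 4 rose and 1 fell in actB, and in Pb the counts were as without it.

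*Sox12* and *Tbx6* gave values that overlapped between treatments in both cell types. *Sox12*, a relative of *Sox4*, was at 1.34 to 1.95 RPKM in actB DMSO and 1.35 to 2.41 RPKM in actB GSK343, and at 0.626 to 1.05 RPKM in Pb DMSO and 0.692 to 1.09 RPKM in Pb GSK343. It fell from actB DMSO to Pb DMSO by 0.92 on the log2 scale (SE 0.21, limma adjusted p = 0.00191). *Tbx6*, a T-box factor of the early mesoderm, was at 3.03 to 6.45 RPKM in actB and 3.15 to 5.57 RPKM in Pb over both treatments. Its change with GSK343 was -0.023 in actB (SE 0.29, adjusted p = 0.982) and -0.25 in Pb (SE 0.29, adjusted p = 0.641), and without replicate 2 of every cultured group the value in Pb was -0.33 (SE 0.09, adjusted p = 0.0388).

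**Figure D4:**
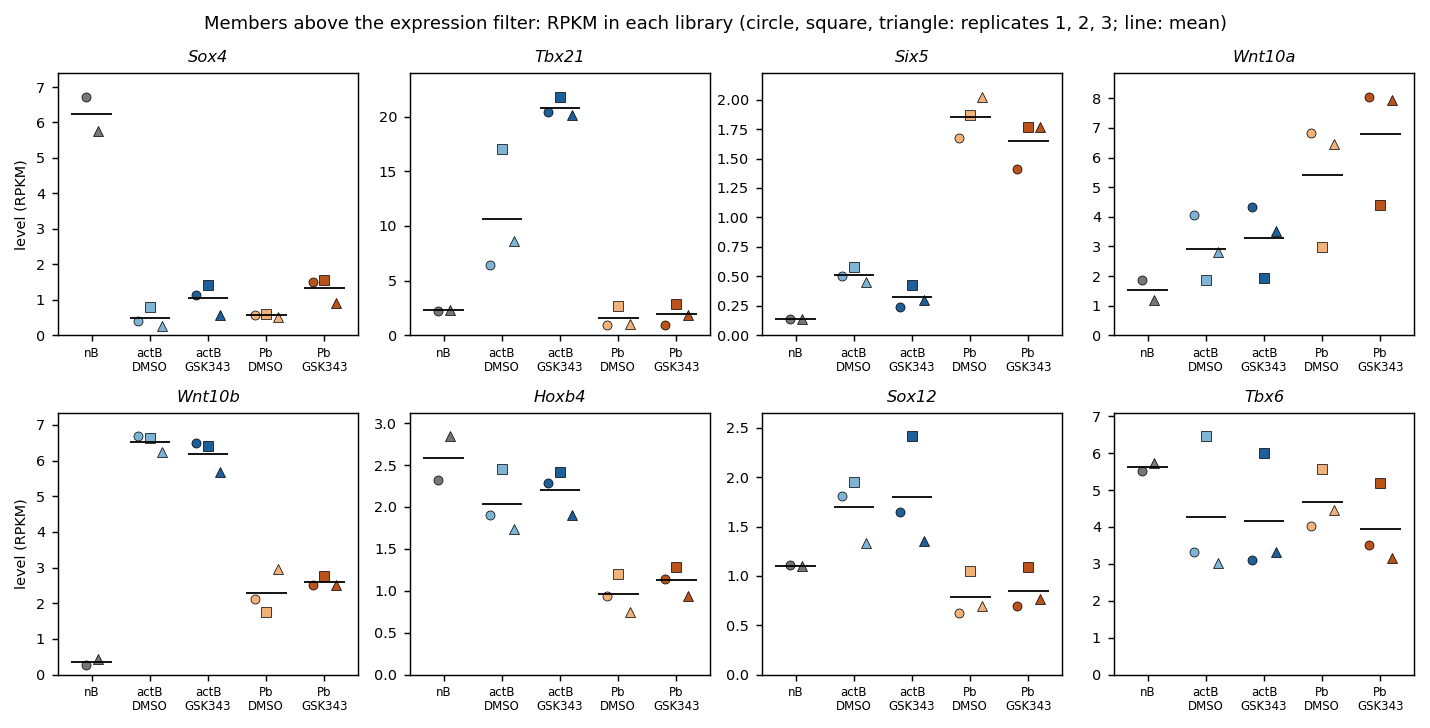
RPKM (vertical axis, from 0) of the 8 members tested in each library of the 5 groups. Circles, squares and triangles are replicates 1, 2 and 3 and lines are group means. *Tbx21* in actB and *Sox4* in Pb lie above every DMSO library of the same cell type with GSK343, *Six5* in actB lies below, and in *Wnt10a* replicate 2 is the lowest of each cultured group.

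Of the 8 members, 4 or 5 were called between each pair of stages. So few genes do not set their share apart from that of all genes tested. From actB DMSO to Pb DMSO 5 of 8 were called, against 69.7% of all genes tested (27.3% higher and 42.4% lower), with *Six5* higher and *Hoxb4*, *Sox12*, *Wnt10b* and *Tbx21* lower, and with the replicate block *Wnt10a* was also called higher (adjusted p = 5.83e-05, where 76.2% of all genes were called). From nB to actB DMSO 4 of 8 were called, against 77.2% (40.9% higher and 36.3% lower), with *Six5*, *Tbx21* and *Wnt10b* higher and *Sox4* lower. From nB to Pb DMSO 5 of 8 were called, against 80.6% (39.5% higher and 41.1% lower), with *Six5*, *Wnt10a* and *Wnt10b* higher and *Hoxb4* and *Sox4* lower. The counts were the same without nB replicate 1 and without nB replicate 3. The count for nB to actB was 7 without actB DMSO replicate 2, when *Hoxb4*, *Tbx6* and *Wnt10a* were also called. It was 8 without replicate 2 of every cultured group. The share of all genes called in these 2 fits is not given here.

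A further 25 members had more than 3 reads in some cultured library without passing the filter, and 12 of these exceeded 3 reads in each library of a cultured group. edgeR was run on every gene with at least 30 reads over the libraries, which took in 14302 genes and 32 members, 20 of these 25 among them. It took in 4 members with at most 3 reads in each cultured library (*Gata1*, *Hoxc4*, *Lhx9* and *Sox6*), which had their reads in nB and could not have been called for GSK343. With GSK343 it called 0 of 32 members in actB, against 8.29% of all genes, and 0 of 32 in Pb, against 10.1%. It gave 5 members in actB and 4 in Pb an unadjusted p under 0.05, counts again not set against all genes. With the replicate block it called 3 members in actB, the same as limma, and 3 in Pb, *Sox4*, *Wnt10a* and *Wnt16*, against 21.8% of all genes in each cell type. Between actB DMSO and Pb DMSO it called 16 of 32, against 61% of all genes.

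*Wnt16*, a ligand gene, was the clearest of these in Pb. It had 1 to 9 reads in actB libraries. In Pb it was at 0.977, 1.71 and 1.06 RPM with DMSO and at 2.41, 3.75 and 1.65 RPM with GSK343, higher in 3 of 3 pairs although GSK343 replicate 3 lay below DMSO replicate 2. The log2 change in Pb was 1.04 by edgeR (adjusted p = 0.120), and 1.04 with the block (adjusted p = 0.00263). From actB DMSO to Pb DMSO *Wnt16* was higher by 3.08 (edgeR adjusted p = 0.000307).

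*Tbx19*, known as a factor of pituitary cells, had 1 to 5 reads in actB libraries. In Pb it had 7, 3 and 9 reads with DMSO and 15, 13 and 13 with GSK343, which did not overlap (0.147 to 0.433 RPM against 0.650 to 0.669 RPM). The change was 1.05 by edgeR (adjusted p = 0.170), and on log2(RPKM + 0.25) without the filter it was 0.45 and was called (SE 0.11, limma adjusted p = 0.0354), also with the block. *Sox8* was higher in Pb DMSO (36, 31 and 38 reads) than in actB DMSO (10, 7 and 7 reads), and with GSK343 in Pb it had 27, 31 and 21 reads (-0.46 by edgeR, adjusted p = 0.432).

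In actB the members with more reads under GSK343 included 2 Sox genes. *Sox5*, an HMG-box gene without a transactivation domain, was at 2.83, 2.78 and 2.64 RPM with DMSO and 4.64, 3.65 and 3.11 RPM with GSK343, which did not overlap, and at 0.400 to 0.657 RPM in the Pb libraries of both treatments. Its change in actB was 0.41 by edgeR (adjusted p = 0.184). *Sox15* was at 0.207 to 0.371 RPM with DMSO and 0.446 to 0.553 RPM with GSK343 in actB (0.73 by edgeR, adjusted p = 0.372), from 5 to 13 reads per library. The annotation places *Mpdu1* on the opposite strand across *Sox15*, so without known strand the source of these reads is uncertain. Treatments overlapped in both cell types for 3 other members. *Sox13*, an HMG-box gene, had 5 to 20 reads in actB libraries and 0 to 4 in Pb libraries, *Wnt2b*, a ligand gene, 12 to 37 reads in every cultured library, and *Tbx2*, a T-box repressor, 1 to 10.

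**Figure D5:**
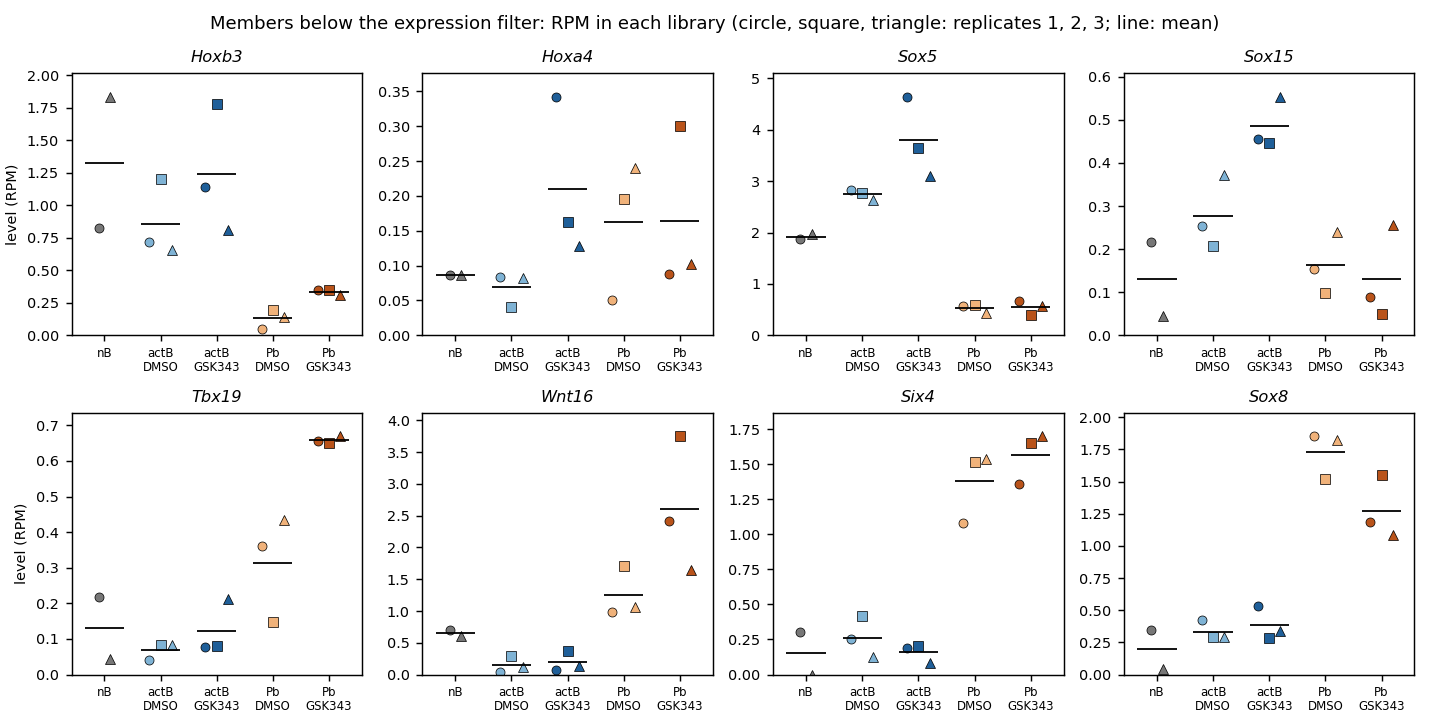
RPM (vertical axis, from 0) of 8 members below the expression filter in each library of the 5 groups, with the symbols of the plot of RPKM. GSK343 libraries lie above all DMSO libraries for *Hoxa4*, *Sox5* and *Sox15* in actB and for *Hoxb3* and *Tbx19* in Pb, and none of these 5 passed edgeR's test of GSK343.

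The 3 GSK343 libraries all exceeded the 3 DMSO libraries in RPM for a small number of members. In actB these were 6 of the 65 members with a read (9.23%), *Hoxa4*, *Sox5*, *Sox15*, *Sox30*, *Tbx21* and *Wnt1*, against 15.6% of all genes with a read. All 3 GSK343 libraries were lower for 1 of 65, *Six5*, against 6.19%. In Pb 3 of 71 were higher (4.23%), *Hoxb3*, *Sox4* and *Tbx19*, against 15.7%, and 2 of 71 lower, *Hoxa6* and *Wnt4*, against 12%. Genes below the filter are closer to the members in level. Among those with a read, 8.77% of members and 9.52% of all genes were higher in actB, and 3.17% and 8.93% in Pb. Among those with at least 10 reads in the 6 libraries, 3 of 16 members (18.8%) and 15.1% of all genes were higher in actB, and 2 of 22 (9.09%) and 14.3% in Pb. *Wnt1*, *Wnt4* and *Sox30* rest on at most 4 reads in a library. With TMM library sizes *Sox30* left and *Hoxa6* joined the lower genes in actB. The smallest two-sided p that an exact permutation test of 3 against 3 libraries allows is 0.1.

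The GATA genes and *Nkx3-2* had their reads mainly at a single stage. *Gata1*, *Gata2* and *Gata3*, factors of erythroid, mast and T cells, had 10 to 32 reads in the nB libraries and 0 to 6 in each cultured library. *Gata3* had 3, 2 and 1 reads in Pb DMSO and 5, 3 and 4 in Pb GSK343, and its GSK343 change in Pb was called, as higher, by limma without the filter and with the replicate block and in no other fit run. In nB the T and NK cell genes summed to 129 and 137 RPM and the erythroid and megakaryocyte genes to 88.6 and 295 RPM, with 89 and 85 reads of *Cd3e*, and their part in the GATA reads was not tested. *Nkx3-2* had no read in the 6 actB libraries, 8, 6 and 4 reads in Pb DMSO and 6, 8 and 0 in Pb GSK343.

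Of the other partners of these factors, 7 of the 11 genes for TALE homeodomain cofactors of Hox proteins could be tested. *Pbx3* rose with GSK343 in actB (0.78, SE 0.13, limma adjusted p = 0.00269) and in Pb (0.54, SE 0.13, adjusted p = 0.0155), from 1.15 to 1.217 RPKM with DMSO to 1.81 to 2.53 RPKM with GSK343 in actB. *Tgif1*, a repressor, fell in both (-0.46, adjusted p = 0.00982, and -0.37, adjusted p = 0.0236), and *Pbx2* rose in actB (0.29, adjusted p = 0.00689). Of 12 GATA, SOX and sine oculis partner genes 6 could be tested, and beside *Eya1*, *Ldb1* fell in both cell types (-0.16, adjusted p = 0.0389, and -0.29, adjusted p = 0.00183) and *Lmo2* rose in Pb (0.32, adjusted p = 0.0173). With the block *Meis3* joined the TALE genes that rose in Pb, and *Eya3* rose in both cell types and *Runx3* fell in Pb. These genes were named after their values were seen.

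The nB libraries differed from each other in these families. Of the 115 members below the filter, 25 had at least 5 reads in nB replicate 1 and at most 1 in nB replicate 3, and 0 the other way (21.7% against 8.81% of all genes below the filter). *Sox9* had 26 and 0 reads, *Tbx18* 23 and 0, *Tbx20* 23 and 0, and *Hoxc8* 17 and 0. The 90 members silent in culture summed to 17.8 RPM in nB replicate 1 and 5.81 RPM in nB replicate 3. Of the 32 members above 3 reads in nB but in no cultured library, 26 were so in nB replicate 1 alone, so that for those 26 a higher level in nB than in culture rested on a single library. *Gata1*, *Hoxc4*, *Six3*, *Sox6* and *Wnt11* were above 3 reads in both nB libraries and in no cultured library, and *Hoxa6* in nB replicate 3 alone.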

How the data were processed

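RNA-seq of mouse B cells was analysed for 5 groups of 3 libraries, grouped by the sample labels. The authors aligned the reads with TopHat2 to mm9, the aligner and build also named in the submitters' processing notes, and used GenomicRanges 1.22.4 to count reads over the exons of Entrez genes. The deposited unit is RPM, although the table bears the name RPKM: its columns sum to 1000000, and every value (100%) lay within 0.00075 RPM of a whole number of reads, which were recovered. RPKM is the deposited RPM per kilobase of gene length. The 92 of 21761 genes that lack a symbol were dropped (up to 0.0905% of a library's reads). The members and the gene lists were chosen with earlier results of these data known.

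The columns of nB replicates 1 and 2 had a chi-square per degree of freedom of 0.00947, where every other pair of a group gave at least 3.57, and were averaged. limma 3.58.1 in R 4.3.3, with a trend in its eBayes step, was run over the 14 resulting libraries on log2(RPKM + 0.25), a scale that understates the change of low genes, with 9 residual degrees of freedom. Tests were two-sided, p-values were adjusted over all genes tested after Benjamini and Hochberg, and a gene was called at an adjusted p under 0.05. The labels do not say which libraries came from separate mice, so p-values measure the spread between these libraries. Members below the filter were tested with edgeR 4.0.16 (quasi-likelihood, TMM) on the recovered reads of genes with at least 30 reads in all.

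Replicate numbers were taken to pair the cultured libraries. Deviations from the group mean of same-numbered libraries in different groups correlated. Their r was 0.158 to 0.502 (number 1), 0.435 to 0.713 (number 2) and 0.219 to 0.356 (number 3) over 6 pairs each. Over 36 pairs of different numbers r was -0.603 to 0.370. Pairs of number 1 with number 3 had r of 0.0737 to 0.370, and every negative r involved number 2. The correlations thus set mainly number 2 apart. A second fit, of the 12 cultured libraries, had the replicate number as a block and is given where it changes a call. DESeq2 1.42.0 and other normalizations, filters and pseudocounts were alternatives, and limma and edgeR were tested on simulated data.

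Named members were those tested, those above 3 reads in each library of a cultured group, those whose GSK343 and DMSO libraries did not overlap with at least 10 reads in the 6 libraries, and Hox genes above 10 reads in culture (27 in all), some of which are not reported here. Coordinates came from GENCODE vM1 (mm9) for 120 of 123 members and 25 of the 27 named, of which 6 overlap another gene. Chromatin and DNA methylation data were not used here.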

Additional observations from a re-analysis of the deposited data

Results flagged for a closer look

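*Six4*, a homeobox gene below the expression filter, had lower RPM with GSK343 than with DMSO in each of the 3 actB pairs of same-numbered libraries and higher RPM in each of the 3 Pb pairs. The difference of the log2 changes, Pb minus actB, was 0.91 by edgeR (adjusted p = 0.920) and did not pass the test. The values in actB were 0.253, 0.415 and 0.124 RPM with DMSO and 0.190, 0.203 and 0.085 RPM with GSK343, from 2 to 10 reads per library, and in Pb they were 1.08, 1.52 and 1.54 RPM with DMSO and 1.36, 1.65 and 1.70 RPM with GSK343.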

How the results depend on the processing

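The members called with GSK343 in actB, 0 by limma without the block, were 3 with the replicate block (also by edgeR with at least 30 reads and by limma without the filter), 1 after quantile normalization, by DESeq2 or with all 15 columns, and 2 without replicate 2 of every cultured group. In Pb, also 0, they were 2 with the block, 3 by edgeR with the block, 4 without the filter with the block, and 1 with a pseudocount of 1, without the filter, with the compared groups alone, by DESeq2, with all 15 columns and without replicate 2 of every group. With 1 library left out they were 0 to 2 in actB and 0 in Pb. The block changed no other call of GSK343 among the 8 members tested. With the block, limma called 3 of 8 members in actB, against 21% of all genes, and 2 of 8 in Pb, against 24.2%. By edgeR with the block the count was 3 of 32 in each cell type, against 21.8% in each. Limma without the filter and with the block called 3 of 105 members in actB, against 9.86%, and 4 of 105 in Pb, against 12.7%. Without the filter and without the block it called 1 of 105 in Pb, against 7.42%. Shares for the other settings are not given here.

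The count from actB to Pb, 5, was 17 without the filter, 22 without the filter with the block, 2 at an RPKM of at least 3, 16 by edgeR with at least 30 reads and 18 by edgeR with the block. From nB to actB, 4, it was 31 without the filter, 16 by edgeR, 8 without replicate 2 of every group and 4 to 7 with 1 library left out. From nB to Pb, 5, it was 41 without the filter, 3 at an RPKM of at least 3, 21 by edgeR and 8 without replicate 2. Without the filter 105 members were tested, and 46.4% (actB to Pb, 51.0% with the block), 59.8% (nB to actB) and 63.9% (nB to Pb) of all 18752 genes were called. By edgeR these shares were 61.0% (67.7% with the block), 71.6% and 75.0% of 14302 genes. More members enter the test without the filter and by edgeR (32 with at least 30 reads) and fewer at 3 RPKM, and the cause of the other differences was not tested. Members above 3 reads in some library were 65, those above 10 reads 38, and those at 0.1 RPKM in every library of a group 26. Members lower in every GSK343 library of actB were 1 in RPM and 2 with TMM library sizes.

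No called value changed sign. Among values not called, quantile normalization gave -0.029 for *Hoxb4* and -0.078 for *Sox12* in actB, and without replicate 2 of every group *Sox12* was -0.053 and *Tbx6* 0.015 in actB. With 1 library left out, GSK343 changes in actB ranged from -0.15 to 0.22 for *Sox12*, -0.31 to 0.30 for *Tbx6*, -0.11 to 0.46 for *Wnt10a*, -0.14 to 0.37 for *Sox8* and -0.62 to 1.08 for *Wnt16*. In Pb they ranged from -0.79 to 0.33 for *Hoxa4*, -0.066 to 0.26 for *Sox12*, -1.19 to 0.016 for *Sox15*, -0.13 to 0.19 for *Sox5*, -0.057 to 0.67 for *Tbx21* and -0.015 to 0.62 for *Wnt10a*. From actB to Pb they ranged from -0.024 to 0.51 for *Sox4* and -0.0018 to 0.51 for *Tbx6*. Over all named members and settings, 985 values kept direction and side of the threshold, 57 passed it newly and 28 changed sign. Alternatives added after seeing the data were edgeR and limma without the filter with the block, all 15 columns, cultured libraries only, and nB libraries left out. So were all alternatives to the edgeR values of members below the filter, among them another scaling of libraries (RLE) and 1 library left out.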
